A study of Homo sapiens with 6 samples.

Results

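BHLHE40 and 9 genes of the negative limb and outputs of the circadian clock were followed by RNA sequencing after PSCA siRNA. The members were taken from the gene table by symbol, 10 of its 58735 genes: BHLHE40, BHLHE41, PER1, PER2, PER3, CRY1, CRY2, NR1D1, NR1D2 and DBP. BHLHE40 was chosen by its lower FPKM in siPSCA in this same comparison, so its values are a description without a test, and the other 9 were taken beside it for their roles in the clock. The cells were HCT116SCs, the CD44+CD326+ cells sorted with magnetic beads from the human colorectal cancer line HCT116 and grown as tumor spheres in serum-free medium with EGF, bFGF and B27. They received a negative control siRNA (NC, n = 3) or an siRNA against PSCA (siPSCA, n = 3), and RNA was taken 48 h later. All 6 libraries therefore share the line, the sort, the medium and the transfection, and no untransfected cells were analysed here. The sources used here name neither the PSCA siRNA that was sequenced nor the time of day of harvest, so a difference in level and a difference in daily phase cannot be told apart. The labels do not state whether libraries came from separate cultures. If they did not, p-values measure only the spread between these libraries and not that between cultures.

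The mammalian clock is a feedback loop of transcription. CLOCK or its relative NPAS2 pairs with ARNTL (BMAL1) and binds E-boxes, and the PER and CRY proteins produced from E-box genes return to the nucleus and inhibit that pair. NR1D1 and NR1D2 (REV-ERBα and REV-ERBβ) are nuclear receptors that repress ARNTL, and BHLHE40 and BHLHE41 (DEC1 and DEC2) are basic helix-loop-helix repressors that occupy E-boxes themselves and are also known as hypoxia-inducible genes. DBP is not a repressor: it is a clock-driven activator that binds D-boxes.

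All 10 members had promoter sequence in RefSeq (GRCh38.p14), in windows from 250 bases before to 50 bases after each transcript start. CACGTG, the E-box, lay in windows of 4 members (BHLHE40, BHLHE41, PER1 and NR1D2) and in 7.26% of all 35116 windows. CACGTT, searched on both strands, so also read as AACGTG, lay in windows of 4 others (PER2, CRY1, CRY2 and NR1D1) and in 5.34% of windows. The 2 D-box forms were rarer: TTATGTAA, on either strand, lay in windows of PER3 and NR1D2 (0.886% of windows) and TTACGTAA in that of PER2 (0.125%). ACGTG, the core of the hypoxia response element, was found on either strand in 8 members, all but PER3 and DBP, and in 21.4% of windows. It is contained in both CACGTG and CACGTT, so these counts overlap. Some members have more than 1 window, so counts of members are not in the unit of the shares of windows. Of the 13 windows of members, 4 held CACGTG, 4 CACGTT, 2 TTATGTAA, 1 TTACGTAA and 9 ACGTG. The DBP window held none of these letters. A match is a description of the sequence and not a measured binding site. The stretches below are 30 bases each, 5′ to 3′ on the gene's strand, and show the E-boxes of the 4 genes that have any (NR1D2 has 2), the related element of CRY1 and NR1D1, the D-box of PER3 and, for BHLHE40, the other ACGTG matches. Capitals mark the matched letters.
BHLHE40 E-box, chr3:4979187-4979216, plus strand, at -245 from the start: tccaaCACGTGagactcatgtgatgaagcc
BHLHE40 ACGTG core, chr3:4979251-4979280, plus strand, at -174: ggcagtggccagACGTGcctggagtcacag
BHLHE40 ACGTG core read on the other strand, chr3:4979276-4979305, plus strand, at -149: cacagggtagaaCACGTagctccaacccac
BHLHE41 E-box, chr12:26125068-26125097, minus strand, at -48: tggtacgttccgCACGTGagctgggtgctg
PER1 E-box, chr17:8152560-8152589, minus strand, at -173: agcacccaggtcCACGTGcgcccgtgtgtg
NR1D2 E-box, chr3:23945954-23945983, plus strand, at -155: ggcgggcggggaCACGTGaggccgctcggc
NR1D2 second E-box, chr3:23946004-23946033, plus strand, at -105: gggccgcagggaCACGTGggggcgggggcg
CRY1 AACGTG, chr12:107093621-107093650, minus strand, at -89: acacacttcagaAACGTGaggtgccggtgg
NR1D1 AACGTG, chr17:40100740-40100769, minus strand, at -168: gcgcaagagctcAACGTGccggctgttgga
PER3 D-box, chr1:7784103-7784132, plus strand, at -177: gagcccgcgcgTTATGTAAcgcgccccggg

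The libraries held 16099716 to 17302219 reads on genes, and 1 read per kilobase of gene was worth 0.0549 to 0.0595 FPKM (fragments per kilobase of gene and per unit of library size). PSCA itself had 4, 12 and 15 reads in NC and 9, 9 and 7 in siPSCA, and the siPSCA to NC ratio of its reads was 0.784 (95% counting interval 0.444 to 1.37), so the knockdown could not be checked at this depth. Of 9 epithelial and sort markers, 7 had a mean of at least 1 FPKM; their sum was 506 to 569 FPKM in NC and 499 to 514 in siPSCA. Of these 7, 2 were higher in limma and 3 lower, or 71.4%, against 50.7% of all genes tested (26.6% higher and 24.2% lower). KRT8 was at 116% and CDX2 at 190% of NC. The sort marker CD44 was at 73.5%, CDH1 at 64.7% and PROM1 at 59.6%. EPCAM (CD326), the other sort marker, was at 88.7% and did not pass (limma adjusted p = 0.199). Once the GC and length trend, given below, was removed, 1 was higher and 4 lower, against 40.1% of all genes. The log2 difference of KRT8 was then -0.05. The intestinal markers VIL1 and LGR5 lay at or under 0.0857 FPKM in every library. Of 8 markers of blood, stromal and endothelial cells only COL1A1 reached 1 FPKM; their sum was 3.75 to 6.06 FPKM in NC and 6.44 to 6.90 in siPSCA, CD3E was listed at 0, and their part in the results was not tested. The change from NC to siPSCA followed GC content across 13792 genes (Spearman rho 0.664 across genes, which are not independent), and library NC 3 differed from NC 1 and NC 2 along the same axis (rho -0.561). Each member is therefore also given after the trend on GC content and gene length had been removed from every library, and without NC 3.

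BHLHE40 (ENSG00000134107; GRCh38 chr3:4979116-4985323, plus strand) was the highest of the 10 members in NC and was about 7 times lower in siPSCA. Its level was 32.2, 33.4 and 32.2 FPKM in NC 1 to 3 and 4.68, 4.25 and 4.91 FPKM in siPSCA 1 to 3. The lowest NC library was far above the highest siPSCA library, and each group was tight, at 32.6 ± 0.723 against 4.61 ± 0.332 FPKM (mean ± SD, n = 3 each). The siPSCA mean was 14.1% of NC, a 7.07-fold lower level, and the difference was -2.58 on the log2(FPKM + 1) scale (SE 0.06, 95% interval -2.73 to -2.44). These levels rest on 2077, 2235 and 2127 reads in NC and on 304, 290 and 343 in siPSCA, so counting error is small beside the difference. Among the 13796 genes with a mean of at least 1 FPKM, ordered by log2 difference, it stood at position 2 from the bottom, and at position 2 of 11079 protein-coding genes.

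The BHLHE40 difference was as large with base composition taken into account. Its GC content was 52.0%, and the 1114 genes between 50% and 52.5% GC had a median difference of 0.09 with a 10th percentile of -0.35. The difference was -2.71 with the trend removed, and without NC 3 it was -2.59. BHLHE40-AS1, an antisense gene that shares 4 exonic bases with it, stayed at or below 0.0606 FPKM in every library. In bulk RNA, fewer cells expressing a gene and less RNA per cell cannot be told apart.

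BHLHE41 (chr12:26120026-26125127, minus strand), the close relative of BHLHE40, was the lowest member in both groups. Its FPKM was 0.754, 0.684 and 0.794 in NC and 0.659, 0.713 and 0.431 in siPSCA. The groups overlapped, because siPSCA 2 lay above NC 2. The means were 0.744 ± 0.0558 and 0.601 ± 0.149 FPKM, under the minimum of 1 FPKM, and the log2 difference was -0.13 (SE 0.11, 95% interval -0.40 to 0.15, limma adjusted p = 0.515 over all 34391 genes with a read). The log2 difference was -0.14 with the GC and length trend removed (limma adjusted p = 0.440) and -0.11 without NC 3 (adjusted p = 0.615). With 151 reads against 125 over the groups, the ratio was 0.805 with a counting interval of 0.630 to 1.03. The ratio of BHLHE40 to BHLHE41 was 42.7, 48.9 and 40.5 in NC and 7.11, 5.97 and 11.4 in siPSCA; BHLHE40 was picked for its change, so the ratio is given without a test.

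**Figure D1:**
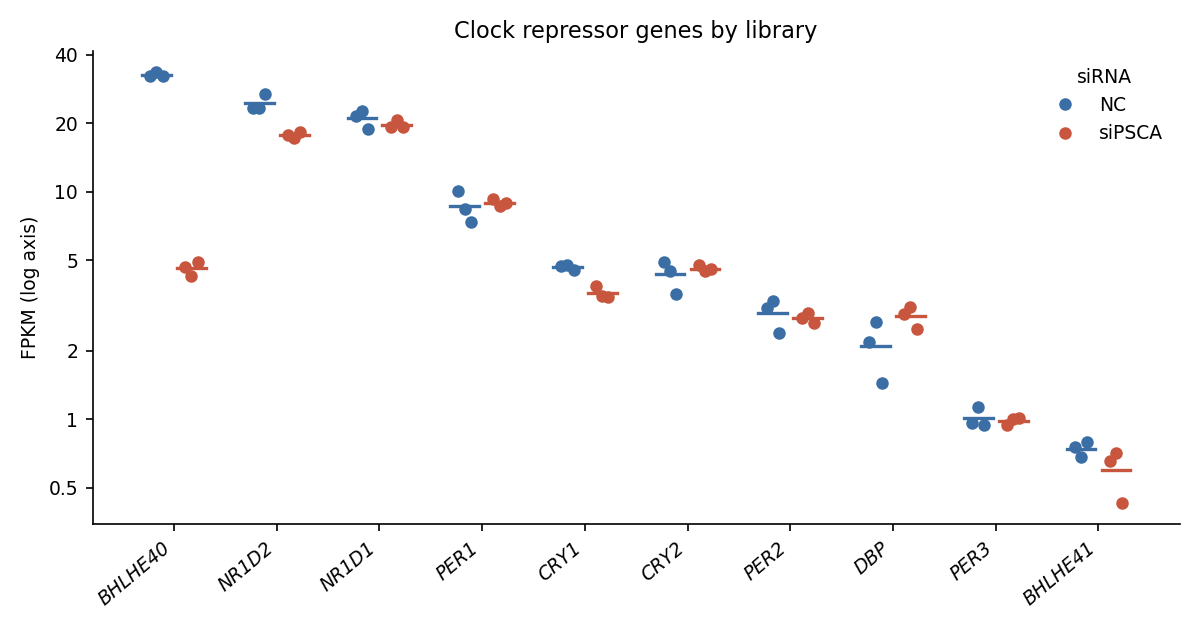
FPKM (log axis) of the 10 members, ordered by their mean in NC; points are libraries (3 NC in blue, 3 siPSCA in red) and bars are group means. BHLHE40 goes from 32.6 to 4.61 FPKM, whereas NR1D2 goes from 24.5 to 17.7 and CRY1 from 4.67 to 3.60, and for the other members the groups overlap.

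Over the 9 members above the minimum, 3 passed an adjusted p of 0.05 in limma, all of them lower in siPSCA: BHLHE40, NR1D2 and CRY1. That is 33.3% of them, against 50.7% of all 13796 genes tested (26.6% higher and 24.2% lower), and their median difference was -0.05, against 0.01 for all genes. The same 3 members were those whose groups did not overlap, against 64.5% of all genes (33.7% higher and 30.8% lower in siPSCA). The count of members past the threshold is thus not above that of genes in general. It includes BHLHE40, which was picked for its change, so that its pass is no test. The other members past the threshold were NR1D2 and CRY1.

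The PER genes, whose proteins carry the inhibitory complex, did not pass on the deposited scale. PER1 (chr17:8140472-8156506, minus strand) stood at 10.1, 8.41 and 7.35 FPKM in NC and at 9.30, 8.63 and 8.92 in siPSCA. All siPSCA values lay within the NC range, with means of 8.62 ± 1.38 and 8.95 ± 0.337 FPKM and a log2 difference of 0.06 (SE 0.11, 95% interval -0.20 to 0.32, limma adjusted p = 0.672). PER1 is GC-rich, at 62.7%, and its sign depended on the scale: with the GC and length trend removed it was -0.48 (adjusted p = 0.00383), and without NC 3 it was -0.04.

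PER2 (chr2:238244038-238290102, minus strand) read 3.10, 3.31 and 2.39 FPKM in NC and 2.79, 2.92 and 2.64 in siPSCA. NC 3 was the lowest of the 6 libraries and NC 2 the highest, so the siPSCA values again lay inside the NC range. The means were 2.93 ± 0.481 and 2.79 ± 0.140 FPKM, and the difference was -0.05 (SE 0.10, 95% interval -0.30 to 0.21, limma adjusted p = 0.727). It was -0.17 with the trend removed (adjusted p = 0.170) and -0.15 without NC 3 (adjusted p = 0.112).

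PER3 (chr1:7784320-7845177, plus strand) was close to the minimum, at 0.963, 1.13 and 0.946 FPKM in NC and 0.949, 1.00 and 1.01 in siPSCA. The groups overlapped, and the difference was -0.02 (SE 0.10, 95% interval -0.26 to 0.22, limma adjusted p = 0.884). It was 0.07 with the trend removed (adjusted p = 0.598) and -0.04 without NC 3 (adjusted p = 0.774). UTS2, on the other strand, shares 868 bases or 10.7% of the PER3 exons, and as the strand used in counting is not given in the sources used here, reads there cannot be assigned to either gene with certainty. The PER1 to PER2 ratio was 3.26, 2.54 and 3.08 in NC and 3.33, 2.95 and 3.38 in siPSCA, with overlapping groups (log2 difference 0.13, 2-sided exact permutation p = 0.5, adjusted p = 0.5 over the 3 ratios tested), and -0.31 with the trend removed (2-sided exact permutation p = 0.2).

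The CRY genes encode the repressors that bind CLOCK and ARNTL directly, and CRY1 fell in siPSCA on the deposited scale. CRY1 (chr12:106991364-107093829, minus strand) had 4.74, 4.75 and 4.52 FPKM in NC and 3.85, 3.48 and 3.46 in siPSCA. Every siPSCA library was below every NC library, and the mean went from 4.67 ± 0.132 to 3.60 ± 0.222 FPKM, 77.0% of NC, a difference of -0.30 (SE 0.06, 95% interval -0.45 to -0.15, limma adjusted p = 0.00908). CRY1 is GC-poor, at 37.2%, and the 696 genes between 35% and 37.5% GC had a median of -0.35; with the trend removed, CRY1 was at 0.04 (adjusted p = 0.681). Without NC 3 the difference was -0.32.

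CRY2 (chr11:45847118-45883248, plus strand) had 4.93, 4.50 and 3.55 FPKM in NC and 4.76, 4.47 and 4.57 in siPSCA. NC 3 was the lowest library and the siPSCA values lay within the NC range, with a difference of 0.08 (SE 0.11, 95% interval -0.17 to 0.33, limma adjusted p = 0.553). Its GC content was 57.0%, and the value turned to -0.22 with the trend removed (adjusted p = 0.0295) and to -0.03 without NC 3. The CRY1 to CRY2 ratio was 0.960, 1.06 and 1.27 in NC and 0.810, 0.779 and 0.757 in siPSCA, lower in every siPSCA library (log2 difference -0.48, 2-sided exact permutation p = 0.1, the smallest that 3 against 3 can give, and adjusted p = 0.15). The ratio turned on the log2(FPKM + 1) scale with the trend removed, where it was higher in every siPSCA library (difference 0.27, 2-sided exact permutation p = 0.1).

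NR1D1 and NR1D2 are the receptors that link the loop to ARNTL and to metabolism, and on the deposited scale NR1D2 was the member with the largest fall after BHLHE40. NR1D2 (chr3:23945260-23980618, plus strand) had 23.3, 23.3 and 27.0 FPKM in NC and 17.7, 17.3 and 18.3 in siPSCA. The groups did not overlap: the mean went from 24.5 ± 2.14 to 17.7 ± 0.488 FPKM, 72.4% of NC, a difference of -0.44 (SE 0.07, 95% interval -0.61 to -0.27, limma adjusted p = 0.00408). Its GC content was 38.5%, and the 1279 genes between 37.5% and 40% GC had a median of -0.31. NR1D2 no longer passed with the trend removed (-0.12, adjusted p = 0.0587), and without NC 3 it was at -0.37.

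NR1D1 (chr17:40092787-40100725, minus strand) had 21.5, 22.7 and 18.8 FPKM in NC and 19.2, 20.6 and 19.3 in siPSCA. NC 3 was again the lowest library, the groups overlapped, and the difference was -0.08 (SE 0.08, 95% interval -0.27 to 0.10, limma adjusted p = 0.390). At 59.5% GC it moved the other way from NR1D2 when the trend was removed, to -0.49 (adjusted p = 0.00122), and it passed without NC 3 as well (-0.16, adjusted p = 0.0390). THRA, on the other strand, shares 263 bases or 9.49% of the NR1D1 exons. THRA went from 4.59 to 6.21 FPKM, but its log2 difference was -0.05 with the trend removed (limma adjusted p = 0.574). Without the strand of counting the reads of the shared stretch cannot be told apart. The NR1D2 to NR1D1 ratio was 1.08, 1.03 and 1.43 in NC and 0.923, 0.837 and 0.948 in siPSCA, below every NC value (log2 difference -0.37, 2-sided exact permutation p = 0.1, adjusted p = 0.15). It turned as well with the trend removed, to a difference of 0.36 with every siPSCA library above every NC library (2-sided exact permutation p = 0.1).

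DBP (chr19:48630030-48637438, minus strand), the activator of the set, had 2.18, 2.68 and 1.44 FPKM in NC and 2.89, 3.12 and 2.49 in siPSCA. It was the member with the highest positive difference, but siPSCA 3 lay below NC 2. The means were 2.10 ± 0.624 and 2.83 ± 0.319 FPKM and the difference was 0.32 (SE 0.16, 95% interval -0.07 to 0.72, limma adjusted p = 0.138). It was -0.01 with the trend removed (adjusted p = 0.956; GC content 57.8%) and 0.16 without NC 3. SPHK2, on the other strand, shares 661 bases or 10.1% of the DBP exons and went from 1.07 to 3.49 FPKM. Its log2 difference was 0.57 with the trend removed (limma adjusted p = 0.00248). The share of SPHK2 in the DBP reads cannot be told apart without strand.

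**Figure D2:**
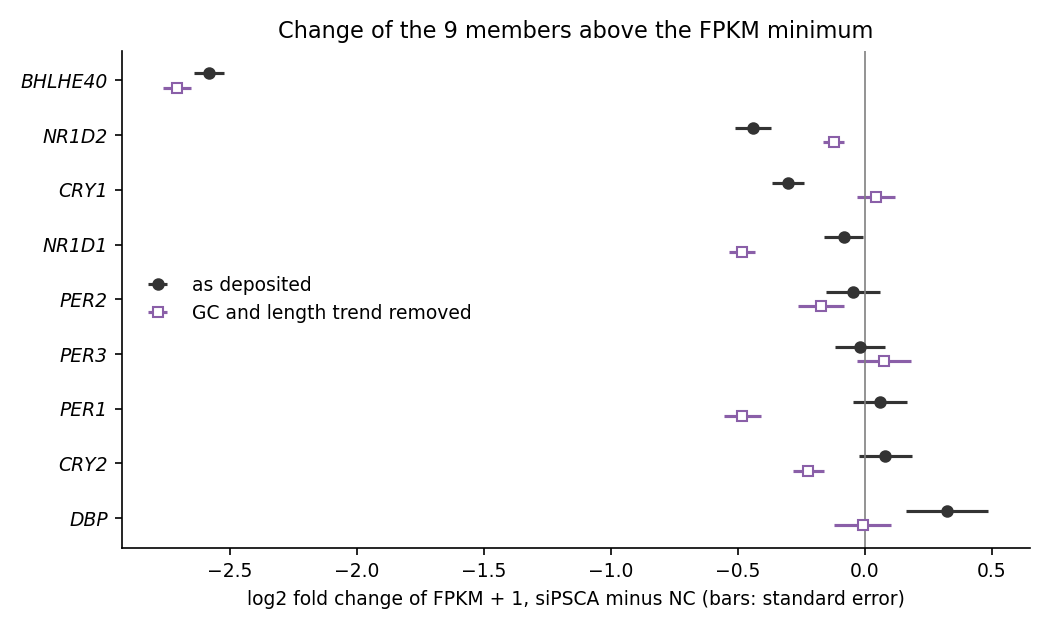
Difference from NC to siPSCA in log2(FPKM + 1) for the 9 members above the minimum, with bars for the standard error; filled circles are values as deposited and open squares those with the GC and length trend removed. BHLHE40 is at -2.58 and -2.71, while CRY1 moves from -0.30 to 0.04, PER1 from 0.06 to -0.48 and NR1D1 from -0.08 to -0.49.

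After removal of the GC and length trend 4 members passed, all lower: BHLHE40, NR1D1, PER1 and CRY2, against 40.1% of all genes (21.7% higher and 18.4% lower), and the median of the 9 was -0.17. No member passed on both scales apart from BHLHE40, which was picked for its change in this same comparison. Without NC 3 the members past the threshold were BHLHE40, NR1D2, CRY1 and NR1D1, 4 of 9, against 7425 of all 13796 genes. On the deposited scale the GC-rich PER1, CRY2, NR1D1 and DBP lay below the medians of the genes of like GC content, which were 0.61, 0.29, 0.40 and 0.40.

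The order of levels on the deposited scale, which is per length but not corrected for GC content, also shows the place of BHLHE40. From high to low, the NC order was BHLHE40, NR1D2, NR1D1, PER1, CRY1, CRY2, PER2, DBP, PER3 and BHLHE41. The ranges of CRY1 and CRY2 and those of PER2 and DBP overlapped, and all other neighbours were separate. In siPSCA the order was NR1D1, NR1D2, PER1, BHLHE40, CRY2, CRY1, DBP, PER2, PER3 and BHLHE41, where BHLHE40 overlapped with CRY2 and DBP with PER2. BHLHE40 thus went from position 1 to position 4, next to CRY2. Removal of the GC and length trend acted on each library's deviation from the gene's mean, so the mean level of a gene kept any GC bias. It therefore gives no order of levels corrected for GC content. With the trend removed, NR1D2 lay below NR1D1 in every NC library and above it in every siPSCA library, and CRY1 lay below CRY2 in every NC library. These positions reflect the turned group differences of the ratios and not which gene is higher.

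Of the activators on the other side of the loop, 4 of 7 were above the minimum, and 2 passed, both lower in siPSCA, with a list median of -0.15. This share is that of all genes tested, of which 50.7% passed (24.2% lower). CLOCK, the histone acetyltransferase of the activating pair, had 9.15, 9.01 and 10.3 FPKM in NC and 5.60, 6.02 and 6.81 in siPSCA (difference -0.56, SE 0.09, limma adjusted p = 0.00363). NPAS2, which can take its place, went from 3.70 ± 0.367 to 2.93 ± 0.211 FPKM (-0.26, limma adjusted p = 0.0428), and of the 6 fits that leave out 1 library it passed in 1, that without NC 3. ARNTL, the partner of both and a target of NR1D1 and NR1D2, was at 4.11, 3.98 and 4.01 FPKM in NC and 4.18, 3.95 and 4.26 in siPSCA (0.03, limma adjusted p = 0.713). ARNTL2 differed by -0.04 (adjusted p = 0.607). RORA and RORB, receptors that oppose NR1D1 and NR1D2 at ARNTL, stayed under the minimum, RORB being listed at 0. The calls were others with the GC and length trend removed: CLOCK was at -0.15 (adjusted p = 0.0674) and NPAS2 at -0.23 (adjusted p = 0.0879), while ARNTL (0.21, adjusted p = 0.0268) and ARNTL2 (0.23, adjusted p = 0.0199) passed as higher.

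Enzymes and cofactors that modify clock proteins were above the minimum in 17 of 18 cases, CIART being the exception, and 13 passed in limma, 5 higher and 8 lower, with a median of -0.20, against 50.7% of all genes. The casein kinase 1 genes, whose products mark PER proteins for degradation, were both higher: CSNK1D went from 11.2 ± 0.924 to 18.0 ± 0.584 FPKM (0.64) and CSNK1E from 8.53 ± 2.72 to 13.9 ± 0.906 (0.68). TIMELESS (0.46), WDR5 (0.49), a subunit of histone methyltransferase complexes, and CSNK2B (0.76), the regulatory subunit of casein kinase 2, were higher as well. The lower genes included NCOR1 (-0.51), the corepressor used by NR1D1, CSNK2A1, GSK3B, FBXW11, SIRT1, KDM5A and USP7. Of these, CSNK2A1 and GSK3B were at 0.04 and 0.03 with the trend removed. The direction of CSNK1D, TIMELESS, WDR5 and NCOR1 held with the trend removed, and each also passed with any 1 library left out, as did KDM5A. Of the 6 fits that leave out 1 library, CSNK1E passed in 2, CSNK2B in 4, GSK3B in 2, FBXW11 in 5, and CSNK2A1, SIRT1 and USP7 in 3 each. On that scale 8 of the 17 passed, 5 higher (CSNK1D, CSNK2B, TIMELESS, WDR5 and NONO) and 3 lower (NCOR1, USP2 and USP7), against 40.1% of all genes, and their median was 0.03.

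The other D-box genes included the largest change outside BHLHE40 among the transcription factors of the clock lists. NFIL3 (E4BP4), the repressor that competes with DBP for D-boxes, had 31.4, 32.1 and 36.6 FPKM in NC and 19.9, 19.3 and 19.8 in siPSCA. The groups were far apart, the difference was -0.73 (SE 0.07, limma adjusted p = 0.000971), and it was -0.68 with the trend removed. TEF, an activator related to DBP, was higher (0.28, adjusted p = 0.0380), but at -0.01 with the trend removed (adjusted p = 0.887), and HLF, the remaining member of the list of 3, was under the minimum. With 1 library left out NFIL3 passed in all 6 fits and TEF in 2.

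Among 8 genes known as clock outputs or E-box targets, all above the minimum, 5 passed, 2 higher and 3 lower, with a median of -0.13, against 50.7% of all genes (26.6% higher and 24.2% lower). CDKN1A (p21) rose from 99.5 ± 18.6 to 177 ± 6.90 FPKM (0.84) and WEE1, the mitotic inhibitor kinase, from 9.47 ± 0.238 to 10.9 ± 0.00359 (0.19). NAMPT, the rate-limiting enzyme of NAD salvage, fell from 24.1 ± 4.22 to 12.4 ± 0.321 FPKM (-0.90) and KLF10 from 52.8 ± 2.82 to 32.8 ± 0.820 (-0.67). After the trend was removed these 5 kept their directions and passed, and TSC22D3 passed as lower (-0.33). WEE1 passed in 3 of the 6 fits that leave out 1 library and CDKN1A, NAMPT and KLF10 in all 6. KLF9 (0.06) and PPARA (-0.07) passed on neither scale.

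The HES and HEY genes encode the nearest basic helix-loop-helix repressors outside the clock, some but not all of them effectors of Notch signalling. Of 11 listed, 5 were above the minimum and 3 passed, all higher (HES2 0.42, HES6 1.36 and HEYL 0.62), with a median of 0.62, against 26.6% of all genes that were higher. HES1, the best known of them, was at 3.84, 4.76 and 2.39 FPKM in NC and 3.44, 3.87 and 3.86 in siPSCA (0.05, limma adjusted p = 0.840). NC 3 was far below the other NC libraries for HES6 (3.99 against 13.8 and 12.9 FPKM) and HES4 (3.32 against 16.8 and 15.6). HES4 did not pass with all libraries (1.29, adjusted p = 0.0885) and passed without NC 3 (0.62, adjusted p = 0.00395), and HES6 passed in 3 of the 6 fits that leave out 1 library. HEYL alone passed with the trend removed (0.23), against 40.1% of all genes.

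BHLHE40 is also a known hypoxia-responsive gene, and it was set beside a list of 10 such genes that was written with earlier results of these data known. All 10 passed as lower in siPSCA in limma, against 24.2% of all genes, with a median of -1.12, and all 10 again with the trend removed, against 18.4%, with a median of -1.37. As the list was written with those results known, its counts are a description and not a test. Without siPSCA 1 or without siPSCA 2 it was 9, as CA9 did not pass (highest adjusted p = 0.0563). NDRG1 had 219, 228 and 232 FPKM in NC and 56.5, 54.7 and 54.7 in siPSCA (-2.01), and PDK1, the kinase that shuts pyruvate dehydrogenase, 6.07, 6.40 and 6.59 against 0.981, 1.15 and 1.15 (-1.81). The glucose transporter SLC2A1 moved least of the 10, from 75.9 ± 9.77 to 55.6 ± 0.604 FPKM (-0.43). BHLHE40 lay below all 10, the lowest of which was KDM3A, a histone demethylase, at -2.07.

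Finally, the 5 protein-coding genes nearest to BHLHE40 were found by the Euclidean distance between centred log2(FPKM + 1) values over the 6 libraries, among 11078 genes. They were C4orf47 (distance 0.323), SLC2A3 (0.517), ENO2 (0.526), P4HA1 (0.543) and KDM3A (0.666). SLC2A3 is a glucose transporter, ENO2 an enolase of glycolysis and P4HA1 a collagen prolyl hydroxylase. Their differences were -2.40, -2.19, -2.21, -2.99 and -2.07. P4HA1, from 136 ± 11.0 to 16.2 ± 0.396 FPKM, was the gene with a larger fall than BHLHE40 on the log2(FPKM + 1) scale. As a share of NC, C4orf47 (11.0%, at 1.12 FPKM in siPSCA) and P4HA1 (11.9%) both lay below BHLHE40 (14.1%). No clock gene was among the 5. With 6 libraries in 2 groups the distance mostly measures the size of the group difference.

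**Figure D3:**
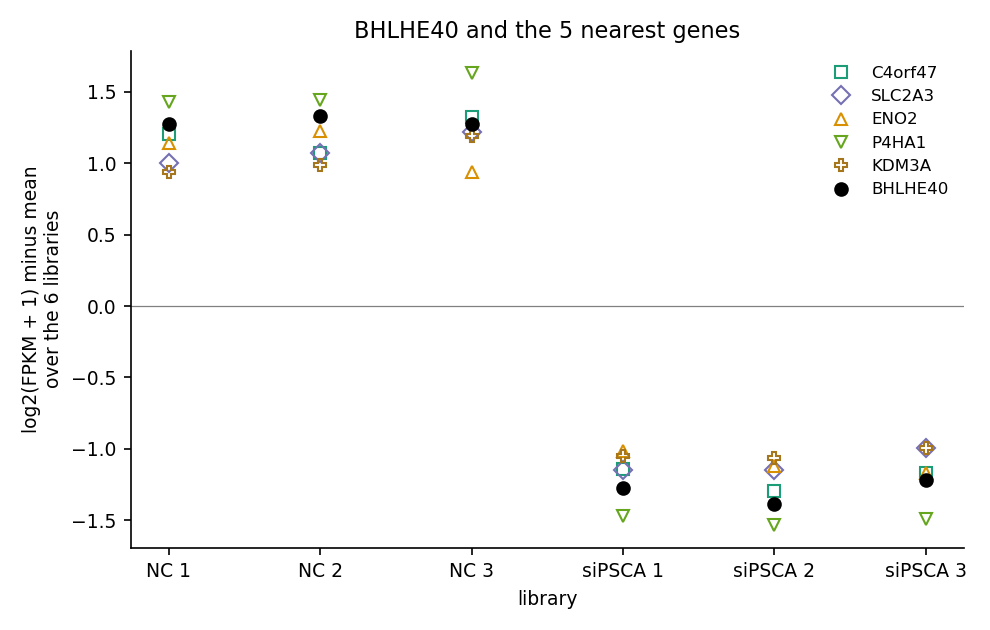
Values of log2(FPKM + 1) minus their mean over the 6 libraries, for BHLHE40 (filled circles) and its 5 nearest genes (open symbols). In all 6 genes the NC libraries lie above 0 and the siPSCA libraries below it, with a difference of -2.58 for BHLHE40 and of -2.07 to -2.99 for the others.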

How the data were processed

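RNA of 6 libraries of HCT116SCs, 3 NC and 3 siPSCA, had been made into cDNA libraries with a NEBNext Ultra kit. The authors deposited 1 table of FPKM values per gene on GRCh38; aligner, counter and strand setting are not given in the sources used here. Titles of siPSCA 2 and 3 carry other numbers after HCT, while their other labels name HCT116. The 58735 gene positions were those of the GENCODE 29 annotation. FPKM times length gave whole reads (tolerance 0.05) for 100% of values.

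Differences were tested with limma 3.58.1 (lmFit, eBayes with trend) in R 4.3.3 on log2(FPKM + 1), which understates changes of low genes, with group as the only term, over 13796 genes with a mean of at least 1 FPKM, with Benjamini-Hochberg adjustment and a threshold of 0.05. Ratios of 3 gene pairs were tested by exact permutation, which cannot go below p = 0.1. GC content came from the longest GENCODE transcript. Intervals of read ratios cover counting error only. The fits were tested on simulated data. Promoter windows were from RefSeq (GRCh38.p14).

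Members and lists were chosen with earlier results of these data known. Named genes are all members, listed genes past the threshold (others with values), PSCA, genes overlapping a member, and the 5 nearest BHLHE40; some listed genes are counted but not reported here by name. Alternatives were a pseudocount of 0.1, no minimum, TPM rescaled from FPKM, limma-voom on the recovered reads, a replicate block, removal of the GC and length trend, both together, and each library left out.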

Additional observations from a re-analysis of the deposited data

How the results depend on the processing

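Under 13 alternatives BHLHE40 ranged from -2.82 to -2.54. Members past the threshold numbered 3 in all but 2 alternatives, which gave 4: GC and length trend removed, and NC 3 left out. Each of these counts includes BHLHE40, which was picked for its change. Where 3 passed they were not always the same. With the trend removed and the replicate block they were BHLHE40, PER1 and NR1D1, and CRY2 did not pass (limma adjusted p = 0.0587). In the other alternatives that gave 3 they were BHLHE40, NR1D2 and CRY1. Signs turned as follows. With the GC and length trend removed, with or without the block, PER1 was -0.48, PER3 0.075, CRY1 0.043, CRY2 -0.22 and DBP -0.0090; so did the ratios of CRY1 to CRY2 (0.27), NR1D2 to NR1D1 (0.36) and PER1 to PER2 (-0.31), an alternative chosen after seeing the data. With 1 library left out, PER1 ranged from -0.039 (without NC 3) to 0.17, PER2 from -0.15 to 0.022 (without NC 2), PER3 from -0.043 to 0.023 (without NC 2) and CRY2 from -0.030 (without NC 3) to 0.16. With no FPKM minimum 1 of 6 activators, 7 of 18 modifiers and 1 of 3 D-box factors passed, against 5601 of 34391 genes. With the trend removed 8 modifiers, 1 D-box factor and 1 HES or HEY gene passed, against 5536 of 13796 genes. With the trend removed and the replicate block 7 modifiers, 1 D-box factor and 1 HES or HEY gene passed, against 4669 of 13796. Counts with 1 library left out ranged from 1 to 2 for activators, 5 to 13 for modifiers, 1 to 2 for D-box factors and 2 to 4 for the HES and HEY genes, and from 4627 (without siPSCA 1) to 7425 for all genes, against 7001. The cause of these shifts was not tested, beyond the fewer libraries or more genes by which the alternatives are built.

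NC and siPSCA libraries share replicate numbers. Deviations of same-numbered libraries from their group means correlated at 0.0955, 0.0132 and 0.134. NC 1 and NC 3 correlated best with the siPSCA library of their own number, and NC 2 with siPSCA 1 (0.0363). Correlations this small, over 3 libraries per group, cannot decide whether the numbers mark a pairing. With the number as a replicate block 6725 genes and 3 members passed.

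Depth limits BHLHE41 and PSCA, which had 125 to 151 and 25 to 31 reads per group.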
